A study of Mus musculus with 2 samples.

Results

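Potassium channel genes were described in single cells of the mouse habenula. The set was chosen by name alone: of 99 symbols starting with Kcn, 17 were left out (the calcium-activated Kcnma, Kcnmb and Kcnn genes and 6 Kcnj genes), which left 82 of the 28692 genes of the files. These are 79 protein-coding genes and 3 noncoding RNAs. The data are 2 droplet libraries, each from habenula punches pooled from 4 adult male C57BL/6 mice aged 50 to 55 days. Animals of the control library were removed from their home cages. Those of the foot-shock library had been habituated to the shock chamber for 10 min on each of 7 days, then received 30 shocks (0.3 mA, 1 s each) within 60 min and were processed at the end of that session. Mice of both groups were handled for 5 min a day over 7 days, and all tissue was prepared in a solution with blockers of neural activity, transcription and translation. With 1 pooled library per group, animals cannot be told apart, and a difference between the groups cannot be told apart from a difference between the libraries.

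Potassium channels let potassium leave or enter the cell along its gradient, and so set the resting potential, the shape of the action potential and the rate of firing. Voltage-gated (Kv) channels are tetramers of pore subunits: Kv3 channels open fast and allow brief spikes at high rates, Kv4 channels carry a transient A-type current that delays firing, and Kv7 channels carry the M-current. Silent Kv subunits form no channel alone and modify Kv2 channels. Kv beta proteins and KChIP proteins are cytoplasmic partners of Kv1 and Kv4 channels. Inward rectifiers (Kir) and two-pore (K2P) channels carry resting potassium current, and the Slo2 channels encoded by Kcnt1 and Kcnt2 open with intracellular sodium. The medial habenula (MHb) projects to the interpeduncular nucleus and fires tonically, and the lateral habenula (LHb) projects to midbrain monoamine centres and can fire in bursts.

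The promoters of 4 genes that stood far apart between medial and lateral neurons are shown, because their RNA levels open the results. Kcnc1 and Kcnc4, which encode Kv3 pore subunits, were higher in LHb-like neurons, and Kcnd2 (a Kv4 pore subunit) and Kcng4 (a silent subunit) were higher in MHb-like neurons. Each sequence is the 250 bases before the RefSeq start, 5′ to 3′ on the strand of the gene (build GRCm38.p6). Capitals mark the letters GGGCGG or ATTAAT on either strand.
Kcnc1 (chr7:46396218-46396467, plus strand): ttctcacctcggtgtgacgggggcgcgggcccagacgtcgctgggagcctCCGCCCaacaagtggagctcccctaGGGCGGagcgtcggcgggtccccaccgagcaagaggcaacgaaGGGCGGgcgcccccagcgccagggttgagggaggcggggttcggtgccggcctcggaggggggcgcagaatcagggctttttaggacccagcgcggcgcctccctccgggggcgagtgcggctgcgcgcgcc
Kcnc4 (chr3:107458899-107459148, minus strand): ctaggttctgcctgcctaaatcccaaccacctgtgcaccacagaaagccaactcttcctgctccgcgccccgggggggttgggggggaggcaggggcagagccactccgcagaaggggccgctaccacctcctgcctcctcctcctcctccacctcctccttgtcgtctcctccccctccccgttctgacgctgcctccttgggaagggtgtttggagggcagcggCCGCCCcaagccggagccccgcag
Kcnd2 (chr6:21215096-21215345, plus strand): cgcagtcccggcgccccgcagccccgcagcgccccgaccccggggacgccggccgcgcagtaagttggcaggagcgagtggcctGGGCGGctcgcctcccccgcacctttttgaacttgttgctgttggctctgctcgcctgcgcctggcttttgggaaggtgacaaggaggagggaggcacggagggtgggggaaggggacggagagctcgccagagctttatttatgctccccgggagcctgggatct
Kcng4 (chr8:119635681-119635930, minus strand): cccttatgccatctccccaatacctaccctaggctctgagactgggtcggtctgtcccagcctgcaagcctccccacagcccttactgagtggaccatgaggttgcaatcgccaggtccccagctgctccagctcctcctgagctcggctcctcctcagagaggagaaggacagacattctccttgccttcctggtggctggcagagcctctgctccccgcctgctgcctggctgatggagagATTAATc

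Among the 82 genes, 57 matched the RefSeq promoter table with 77 windows of this kind. Each window was searched on both strands for GGGCGG, the core of a GC box, for TATAAA and for ATTAAT, a site sequence of POU-type homeodomain proteins; TATAAA and ATTAAT can share bases at their ends. GGGCGG was in 44.2% of the windows of the potassium channel genes and in 32.7% of the 32851 windows of all genes. TATAAA was in 1.30% against 12.4%, and ATTAAT in 3.90% against 4.39%. A match is only a run of letters, and the windows of Kcnc1, Kcnc4 and Kcnd2 all held GGGCGG although these genes differed in opposite directions.

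The libraries held 23095501 UMIs in control and 22189951 in foot shock, and 4880 and 4771 cells were kept. The 2 libraries shared 36 cell barcodes, where 33.7 were expected from the barcode pool. Clusters were named from marker genes. MHb-like neurons numbered 1212 in control and 1625 in foot shock, LHb-like neurons 972 and 874, and oligodendrocyte-like cells 1080 and 831. All 10 MHb markers and all 7 LHb markers had UMIs in their own class in both libraries. The classes were named from these markers, so this is no separate check of the names. All 7 LHb markers also had UMIs in MHb-like neurons in both libraries. In LHb-like neurons 9 MHb markers had UMIs in control and 10 in foot shock. Summed MHb markers were at 4572 and 4799 CPM in MHb-like neurons against 1070 and 1503 in LHb-like neurons. A level in CPM is the UMIs of a gene in a class and library, scaled to a class total of 1000000 UMIs, and pairs of levels give control first and foot shock second. The 3′ chemistry counts each transcript once, so no length scaling was applied. Free RNA, measured in barcodes of 10 to 100 UMIs, also enters cells. Of the 38 members called between the habenula classes below, 23 lay at or below their free RNA level in the lower class in both libraries, and 2, Kcna1 and Kcnab1, did so in the higher class as well.

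In all cells of the classes, 61518 UMIs came from the set. 17 members had at least 1000 UMIs, 40 had at least 20 but fewer than that, 16 had 1 to 19 and 9 had 0, among them Kcnk9, Kcnk18 and Kcnj1. The summed level of the set was 2514 and 2483 CPM in MHb-like neurons and 2534 and 2187 in LHb-like neurons, so the 2 habenula classes held similar totals. It was 3155 and 3075 CPM in thalamus-like neurons, 2855 and 2682 in oligodendrocyte precursor-like cells and 1191 and 914 in oligodendrocyte-like cells.

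**Figure D1:**
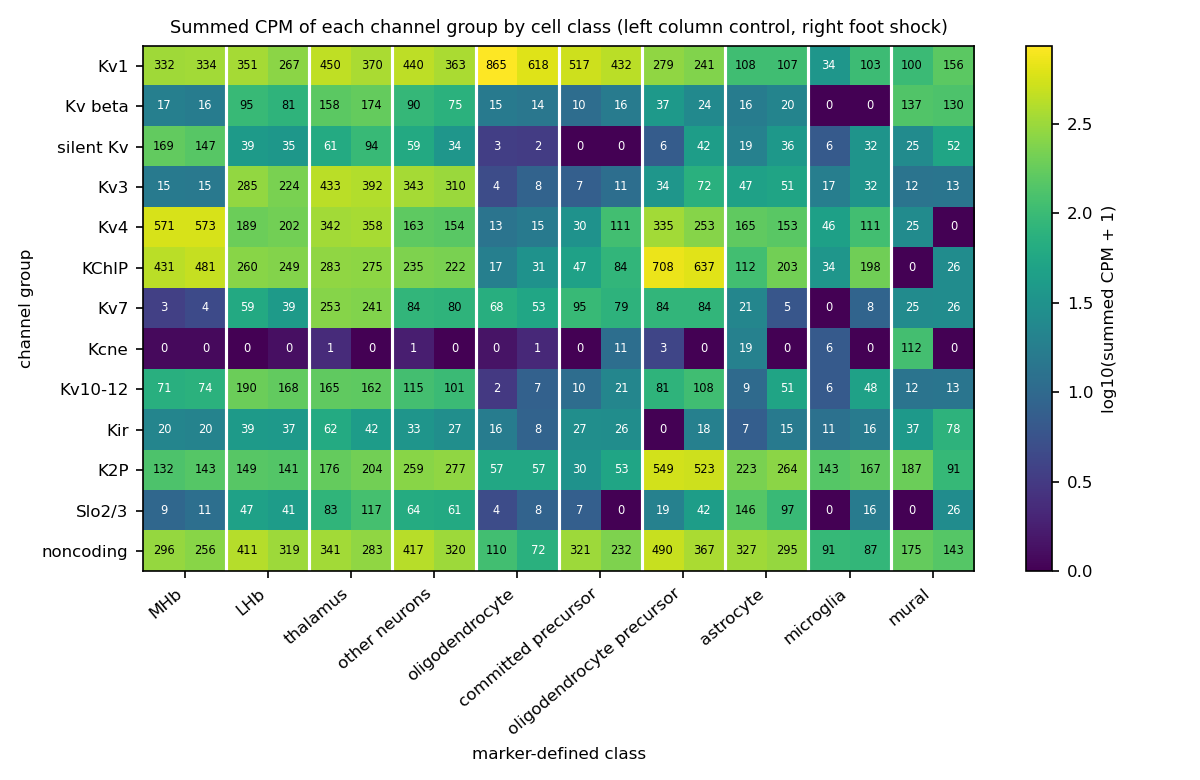
Summed CPM of the reported genes by channel group (rows, without Kv2 and Kcnrg) and cell class (columns, control left and foot shock right). Classes drawn have at least 50 cells in each library. Colour is on a log10(CPM + 1) scale and the rounded CPM is printed in each cell. In MHb-like neurons Kv4 reaches 571 and 573 CPM, while in LHb-like neurons Kv3 reaches 285 and 224.

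The groups that made up these totals differed, and the sums below cover the genes of each group that are reported here. Kv4 genes summed to 571 and 573 CPM in MHb-like neurons against 189 and 202 in LHb-like neurons, and KChIP genes to 431 and 481 against 260 and 249. Silent subunits summed to 169 and 147 CPM against 38.8 and 34.5. Kv3 genes went the other way, with 15.3 and 14.6 CPM in MHb-like neurons and 285 and 224 in LHb-like neurons. Kv7 genes summed to 2.59 and 3.55 CPM against 59.4 and 38.9, Kv10 to Kv12 genes (Kcnh) to 70.8 and 73.9 against 190 and 168, and Kv beta genes to 17.3 and 16.2 against 95.4 and 81.1. In both libraries each of these groups lay on the same side. K2P genes, at 132 and 143 CPM against 149 and 141, did not separate the classes.

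MHb-like and LHb-like neurons were compared with edgeR's quasi-likelihood test on UMIs summed per class and library, with the library as a block. The 4 sums leave 1 residual degree of freedom per gene, so the spread is largely borrowed from other genes. The Kcn genes took no part in the clustering. Of 46 members that passed the filter on low counts, 38 were called at an adjusted p under 0.05 (10 higher in MHb-like, 28 higher in LHb-like neurons), where 49.1% of all 12177 genes tested were called. Of all genes, 24.2% were called higher and 24.9% lower in MHb-like neurons. At least 2-fold apart in both libraries were 5 members higher and 22 lower in MHb-like neurons, against 4.78% and 10.7% of all genes. The median log2 difference was −0.92 over the members and −0.00 over all genes. No MHb-like sum of Kcna1, Kcnc1, Kcnc2, Kcnh1, Kcnip2, Kcnj2, Kcnk13, Kcnq3, Kcnq5 or Kcnt2 reached the level of the filter. They entered through the LHb-like sums alone, as Kcnj4 did through the MHb-like sums, so their calls were tied to their entry.

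**Figure D2:**
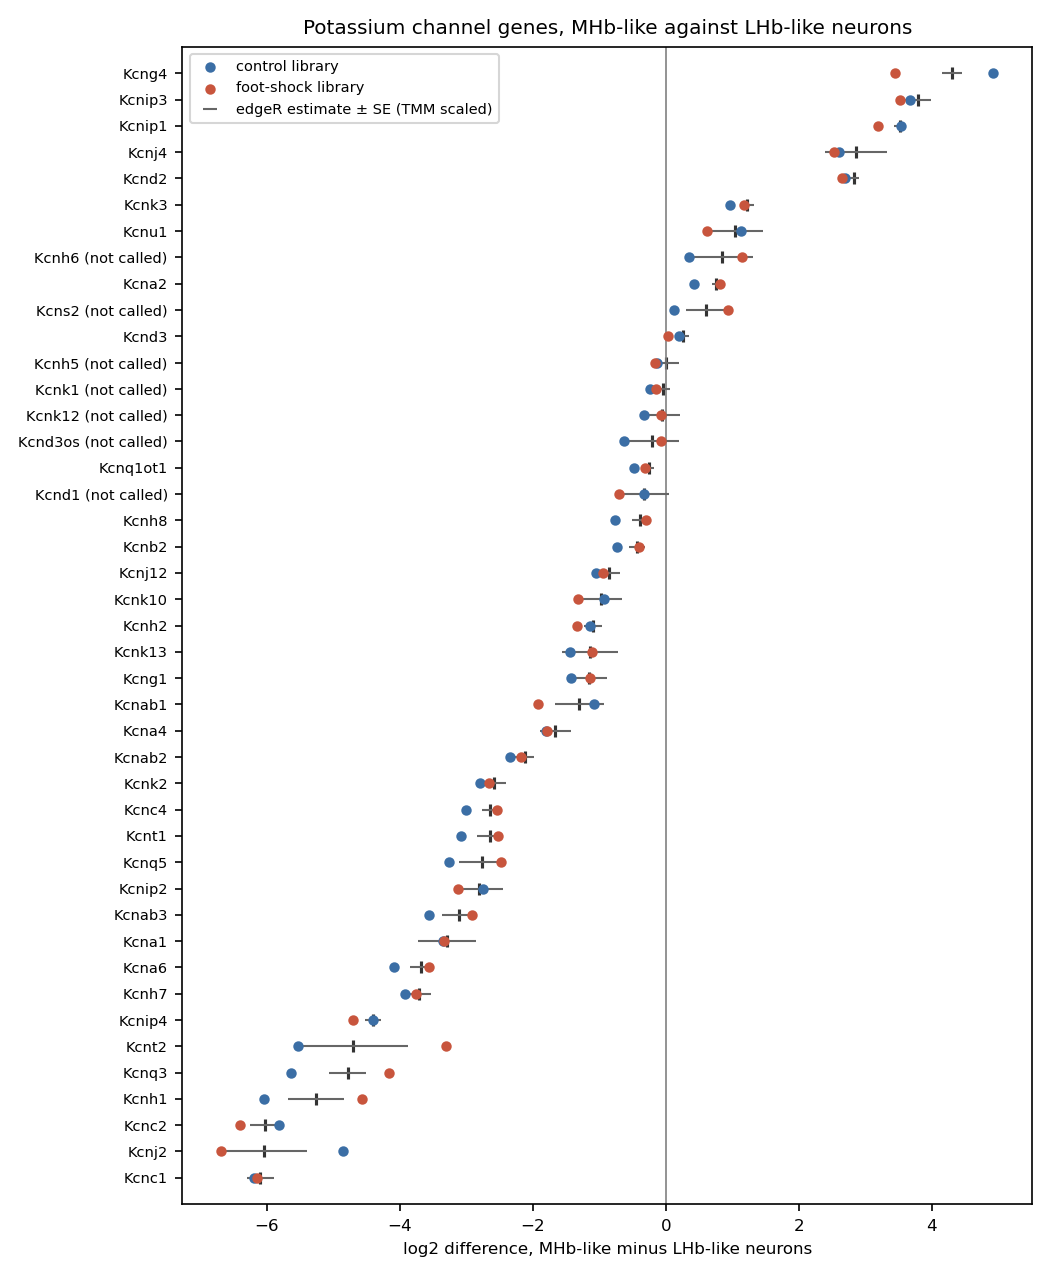
Log2 difference between MHb-like and LHb-like neurons (horizontal axis) for 43 of the 46 tested genes (rows), as 1 point per library and the edgeR estimate with its SE. Kcng4, Kcnip3, Kcnip1, Kcnj4 and Kcnd2 lie far to the right and Kcnc1, Kcnj2 and Kcnc2 far to the left.

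Among the channels of fast spiking, Kcnc1 (Kv3.1; chromosome 7, 46396497 to 46438704) was at 1.39 and 1.07 CPM in MHb-like neurons and at 109 and 81.8 in LHb-like neurons. The log2 difference was −6.10 (SE 0.20), and this gene entered the test through the LHb-like neurons alone. Kcnc2 (Kv3.2) was at 1.19 and 0.71 CPM against 72.5 and 67.8, a log2 difference of −6.03. Kcnc4 (Kv3.4; chromosome 3, 107438303 to 107459552) was at 12.7 and 12.8 CPM against 103 and 74.6. These 3 genes were at least 2-fold lower in MHb-like neurons in both libraries, as were 10.7% of all genes tested.

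Of the 3 tested genes of the A-type channels, Kcnd2 stood clearly higher in MHb-like neurons. Kcnd2 (Kv4.2; chromosome 6, 21215503 to 21729805) was at 432 and 440 CPM in MHb-like neurons and at 66.5 and 69.9 in LHb-like neurons, where free RNA held 79.0 and 90.2, a log2 difference of 2.83 (SE 0.08, edgeR adjusted p = 2.1e-44). Kcnd3 (Kv4.3) was at 135 and 131 CPM against 118 and 128, and its call (log2 0.26) was lost without TMM scaling, where the log2 difference was 0.11. Kcnd1 (Kv4.1) was at 3.58 and 2.49 CPM against 4.50 and 4.04 and was not called. The KChIP partners of Kv4 divided between the classes. Kcnip1 (chromosome 11, 33629339 to 33993152) was at 367 and 429 CPM in MHb-like neurons and 31.5 and 46.6 in LHb-like neurons, where free RNA held 54.6 and 96.4. Kcnip3 was at 52.5 and 44.4 CPM against 4.03 and 3.73. Kcnip4 (chromosome 5, 48389502 to 49524907) went the other way, with 9.95 and 7.10 CPM in MHb-like neurons against 212 and 188 in LHb-like neurons (log2 −4.41, SE 0.12). Kcnip2 was also higher in LHb-like neurons, at 1.79 and 1.07 CPM against 12.6 and 9.95.

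Kcnb2, a pore subunit of the delayed rectifier, was called higher in LHb-like neurons, at 34.4 and 32.9 CPM in MHb-like neurons against 57.5 and 43.5. The silent subunit Kcng4 (Kv6.4; chromosome 8, 119623854 to 119635680) was at 155 and 134 CPM in MHb-like neurons and at 4.97 and 12.1 in LHb-like neurons, below its free RNA level of 20.2 and 16.6. Its log2 difference was 4.30 (SE 0.15, edgeR adjusted p = 2.5e-39). Kcng1 was called in the other direction at low levels, 4.97 and 4.09 CPM against 13.5 and 9.02.

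Kv1 channels set the threshold for spikes and sit on axons. Kcna2 (Kv1.2) was higher in MHb-like neurons, at 320 and 323 CPM against 238 and 183 (log2 0.76). Kcna6 was higher in LHb-like neurons, at 4.18 and 5.33 CPM against 72.7 and 64.0, close to its free RNA level of 64.6 and 42.0. Kcna1 was at 1.19 and 0.36 CPM against 13.0 and 4.35, and both classes lay below its free RNA level of 16.9 and 10.4. Kcna4 was at 6.37 and 4.26 CPM against 22.5 and 14.9. The 3 Kv beta genes were all called higher in LHb-like neurons. Kcnab2 was at 12.1 and 11.9 CPM in MHb-like neurons against 62.0 and 54.4, and Kcnab3 at 2.19 and 2.66 against 27.0 and 20.5. Kcnab1 was at 2.98 and 1.60 CPM against 6.39 and 6.22, at or below its free RNA level in both classes.

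The M-current genes Kcnq3 and Kcnq5 were both called higher in LHb-like neurons. Kcnq3 was at 0.80 and 1.42 CPM in MHb-like neurons against 44.3 and 27.0 in LHb-like neurons (log2 −4.79), and Kcnq5 at 1.39 and 1.78 against 14.2 and 10.3. Among ether-a-go-go type channels, Kcnh7 was at 3.58 and 3.37 CPM against 55.7 and 46.9, Kcnh1 at 0.20 and 0.53 against 19.7 and 14.6, and Kcnh2 at 21.3 and 18.5 against 47.1 and 46.9. Kcnh5 and Kcnh6 were not called.

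Of the inward rectifiers in the set, Kcnj4 was higher in MHb-like neurons at a low level (6.37 and 6.22 CPM against 0.95 and 0.93), and Kcnj2 and Kcnj12 were higher in LHb-like neurons. Kcnj2 had 8.53 and 9.02 CPM in LHb-like neurons and 0.20 and 0.00 in MHb-like neurons. Among two-pore channels, the acid-sensitive Kcnk3 was higher in MHb-like neurons (70.6 and 83.1 CPM against 36.0 and 36.7, log2 1.22) and the stretch-sensitive Kcnk2 in LHb-like neurons (5.97 and 5.86 against 42.2 and 37.3, log2 −2.59). Kcnk10 and Kcnk13 were called higher in LHb-like neurons at 4.50 to 8.08 CPM. Kcnk1 was at 42.0 and 41.0 CPM against 49.7 and 45.4 and was not called. The sodium-activated Kcnt1 was at 4.77 and 6.22 CPM against 41.2 and 36.1, and Kcnt2 was at 0.00 and 0.18 against 4.50 and 2.49. Kcnt2 passed the low-count filter through the LHb-like neurons alone, so its call was fixed by its entry. The same entry held for Kcnc1 and the other genes named with it above. Kcnu1, the remaining Slo gene, was called higher in MHb-like neurons at 3.78 and 4.44 CPM against 1.66 and 2.80, a call that was lost under 5 alternatives, DESeq2 and class totals among them.

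Noncoding Kcnq1ot1, an antisense RNA of the imprinted Kcnq1 locus, had the highest level of the set in LHb-like neurons (407 and 315 CPM, against 293 and 253 in MHb-like neurons). Kcnq1 itself had 5 UMIs in all classes.

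The genes of channel partners were read from a separate list of 25 (anchors, auxiliary subunits and regulators), of which 24 were tested. Of these, 7 were called higher and 12 lower in MHb-like neurons, where 24.2% of all genes were called higher and 24.9% lower. Lgi3, which encodes a secreted protein of the Kv1 and Adam22 family of axonal complexes, was at 2.79 and 2.66 CPM in MHb-like neurons and 54.7 and 50.05 in LHb-like neurons. Lgi2 was at 20.7 and 19.2 CPM against 154 and 143. On the medial side, Dpp6, an auxiliary subunit of Kv4 channels, was at 397 and 411 CPM against 258 and 298, and Cntnap2, which clusters Kv1 channels on axons, at 376 and 386 against 221 and 251. Akap5, Lgi1 and Cntn2 were called lower and Nedd4l higher in MHb-like neurons.

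Within each class, neuron subclusters were set against the rest of the class. These are values of 1 library each without a test, because subclusters were cut from the genes of the same cells. A member was counted where it was 2-fold apart in both libraries. Of MHb-like neurons, 28 members had at least 20 UMIs in each library. Subclusters are named by 2 leading genes.

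The MHb-like cluster led by Cck and Tac1 had 6 members higher and 7 lower than the rest (all genes, 2.66% and 5.25%). Kcng4 was at 480 and 364 CPM there against 106 and 99.0 in the rest, and Kcnk2 at 34.9 and 34.1 against 1.60 and 1.63. Kcna2 was at 74.4 and 80.4 CPM against 357 and 359, and Kcnd2 at 167 and 169 against 472 and 481. The cluster led by Lsp1 and Emid1 was the reverse for 2 of these genes. Kcna2 was at 590 and 530 CPM there against 248 and 259, and Kcng4 at 8.54 and 9.89 against 193 and 171. It also had Kcnip3 at 137 and 100 CPM against 30.2 and 27.3. It had 5 members higher and 3 lower (all genes, 3.00% and 3.85%). The Syt15/Rspo4 cluster had Kcnip3 at 2.38 and 1.66 CPM against 69.3 and 56.1, and Kcnc4 at 26.9 and 33.2 against 7.97 and 7.23, with 1 member higher and 8 lower (all genes, 1.46% and 4.47%). The Car2/Ebf3 cluster had 4 higher and 2 lower (all genes, 1.44% and 2.23%), with Kcnh8 at 53.3 and 74.1 CPM against 27.0 and 29.6. The Calcrl/Ppp1r1b and Ascl4/Abhd2 clusters had 0 members higher and 3 lower each, and Pim1/Fn3krp had 1 higher, Kcnh8, and 3 lower (all genes, 0.297%, 1.38% and 2.07% higher and 1.46%, 1.85% and 2.67% lower). In foot shock Ascl4/Abhd2 and Pim1/Fn3krp were shallower, at medians of 1742.5 and 2208 UMIs per cell against 3468 for MHb-like neurons.

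Of LHb-like neurons, 36 members had at least 20 UMIs in each library. Kcnc1 and Kcnc4 differed between the subclusters. Kcnc1 was at 265 and 276 CPM in the Sod3/Lypd1 cluster, 165 and 151 in Gad2/Rph3a and 196 and 145 in Ret/Lin7a. It was at 9.24 and 10.6 CPM in Peg10/Chrm2, 34.1 and 27.0 in Pam/Insig1 and 4.85 and 9.39 in Sst/Mctp1. Kcnc4 followed the same split, from 257 and 261 CPM in Sod3/Lypd1 to 17.1 and 16.4 in Peg10/Chrm2. Kcnc2 did not follow it, with 84.2 and 60.2 CPM in Sod3/Lypd1, 61.8 and 56.5 in Peg10/Chrm2 and 121 and 145 in Ret/Lin7a. The Sst/Mctp1 cluster had 13 members lower and 1 higher (all genes, 7.96% and 2.10%), among them Kcnc2 with 0 and 1 UMIs and Kcnab3 and Kcnh8 with 0 UMIs in both libraries. The Peg10/Chrm2 cluster had 11 lower and 0 higher (all genes, 4.02% and 1.47%). The Gad2/Rph3a cluster had 8 higher and 1 lower (all genes, 2.73% and 2.88%), with Kcnk2 at 82.9 and 112 CPM against 22.2 and 17.3 and Kcnh1 at 43.3 and 50.3 against 8.11 and 5.12. The Sod3/Lypd1 cluster had 5 higher and 3 lower (all genes, 2.43% and 3.40%), with Kcnk1 at 177 and 186 CPM against 42.2 and 36.1. The Ret/Lin7a cluster, shallower at a control median of 1576 UMIs per cell against 4303 for LHb-like neurons, had 3 higher and 0 lower (all genes, 1.59% and 1.26%), with Kcng1 at 48.0 and 32.9 CPM against 6.05 and 3.79. The Pam/Insig1 cluster had 0 higher and 3 lower (all genes, 1.34% and 1.45%). It was shallower too, at medians of 2922 UMIs per cell in control and 1984.5 in foot shock.

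**Figure D3:**
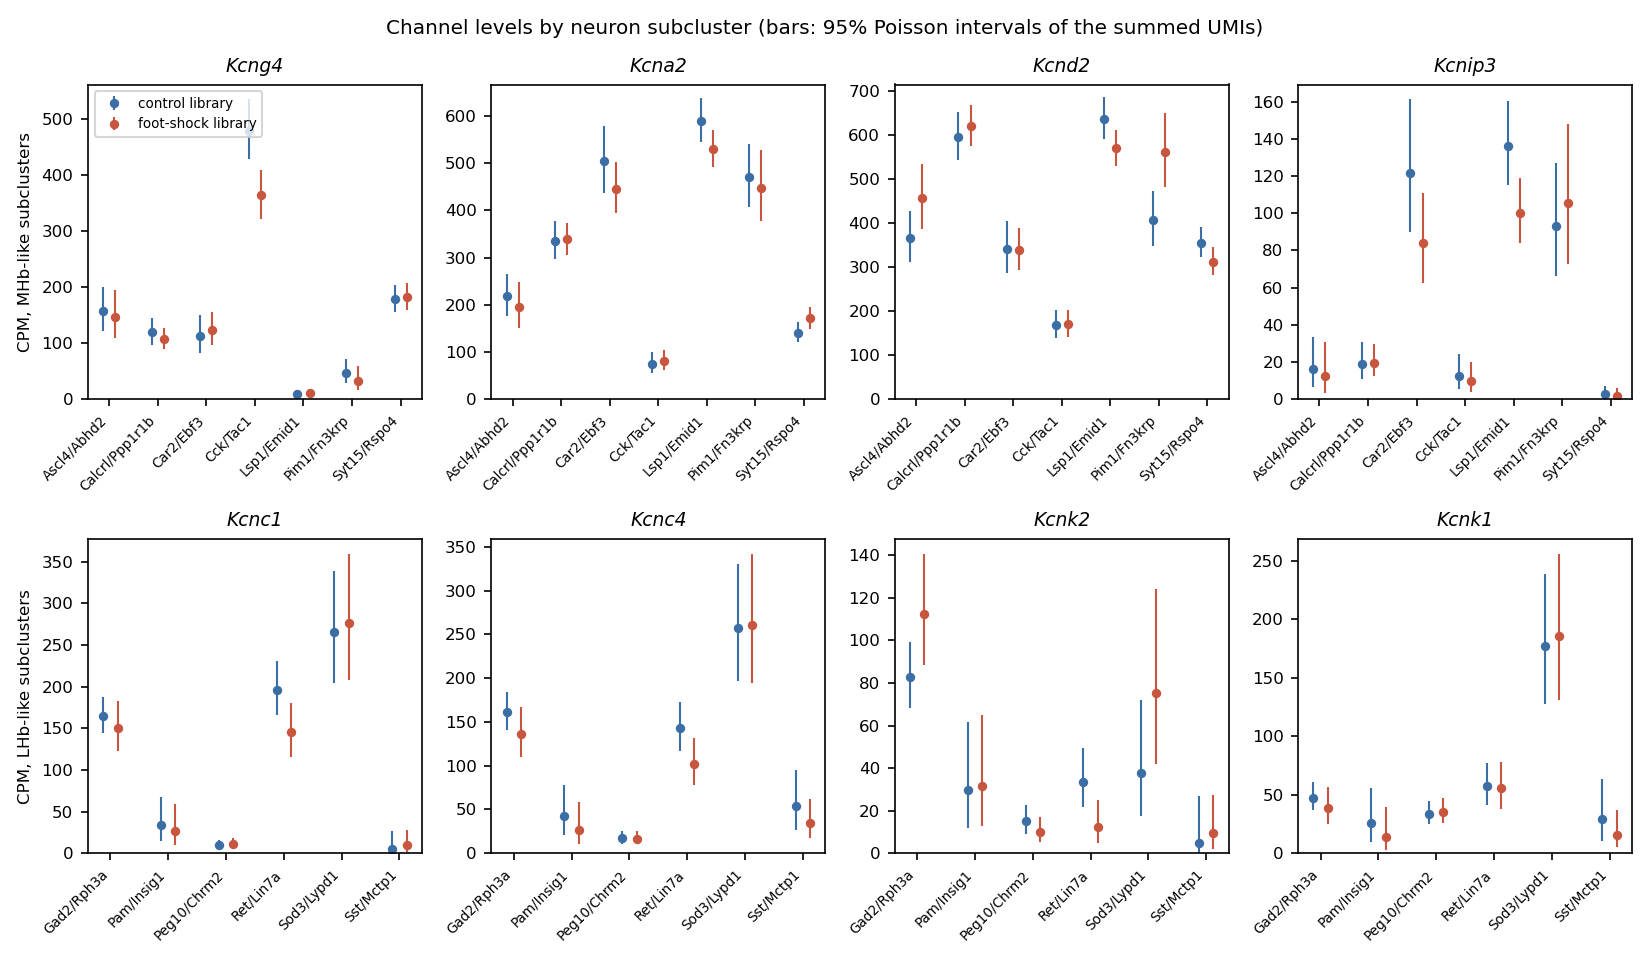
CPM (vertical axis) of 4 genes in the MHb-like subclusters (upper row) and of 4 genes in the LHb-like subclusters (lower row), 1 point per library with a 95% Poisson interval. Kcng4 stands at 480 and 364 CPM in Cck/Tac1 and at 8.54 and 9.89 in Lsp1/Emid1, and Kcnc1 at 265 and 276 in Sod3/Lypd1 and 9.24 and 10.6 in Peg10/Chrm2.

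Glial and vascular classes were compared with all habenula neurons (MHb-like and LHb-like summed) by the same test. In these fits the spread was taken almost wholly from all genes together. In oligodendrocyte-like cells, 7 of 47 members were called higher and 39 lower, where 31.2% of all genes were called higher and 35.9% lower. Kcna1 (Kv1.1; chromosome 6, 126640397 to 126646384) was at 658 and 424 CPM there and at 6.60 and 1.81 in habenula neurons, a log2 difference of 7.70 (SE 0.18, edgeR). Kcna6 was at 155 and 132 CPM against 35.5 and 26.7, the two-pore gene Kcnk13 at 48.2 and 42.0 against 2.92 and 3.05, and Kcnq3 at 67.6 and 52.1 against 20.6 and 10.7. Kcnj2 was at 13.1 and 7.10 CPM against 4.00 and 3.28. Kcnab1 was called at 7.18 and 6.51 CPM, below its free RNA level. Kcnk5 was called on 10 and 5 UMIs, and with 0 UMIs in habenula neurons it passed the low-count filter through the oligodendrocyte-like cells alone, so its call was fixed by its entry. Counted by class totals in place of TMM, whose scaling moved all genes by 0.66 on the log2 scale in this fit, 6 members were higher.

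Some of these genes were also called in cells of earlier stages of this lineage. In oligodendrocyte precursor-like cells (243 and 103 cells), 8 of 46 members were called higher and 13 lower (all genes, 14.2% and 16.3%). Kcnip3 was at 596 and 433 CPM against 30.4 and 29.6 in neurons, Kcnk2 at 310 and 235 against 22.5 and 17.3, Kcnk3 at 149 and 150 against 54.8 and 66.2 and Kcnq3 at 74.5 and 78.2 against 20.6 and 10.7. Kcna1, Kcna6, Kcnab1 and Kcnk1 were also called there, and 4 of the 8 (Kcna1, Kcna6, Kcnab1 and Kcnq3) were called in oligodendrocyte-like cells too. The summed MHb markers allowed a free RNA share of at most 13.2% and 29.9% in these precursor-like cells. Kcna6 was at 74.5 and 42.1 CPM in them, near its free RNA level of 64.6 and 42.0. With free RNA subtracted, 6 members were called higher and 9 lower, and genes called either way went from 3772 to 3005. In committed precursor-like cells, 2 of 45 were called higher and 19 lower (all genes, 15.3% and 19.9%): Kcna1 was at 243 and 111 CPM and Kcnq3 at 81.0 and 47.4, and both were called in oligodendrocyte-like cells as well. Kcna1 thus stood at 59.0 and 24.1 CPM in precursor-like, 243 and 111 in committed precursor-like and 658 and 424 in oligodendrocyte-like cells, in the same order in both libraries.

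In astrocyte-like cells, 4 of 47 members were called higher and 23 lower (all genes, 21.3% and 25.1%). Kcnk1 was at 156 and 168 CPM against 45.5 and 42.6 in neurons, the sodium-activated Kcnt1 at 146 and 96.6 against 21.4 and 17.1, Kcnip3 at 85.1 and 137 against 30.4 and 29.6 and Kcnk2 at 59.8 and 76.3 against 22.5 and 17.3. In microglia-like cells, 1 of 46 was called higher and 12 lower (all genes, 9.92% and 9.01%): Kcnk6, a two-pore gene, was at 97.1 and 79.3 CPM and had 1 UMI in all habenula neurons. It passed the low-count filter through the microglia-like cells alone, so its call was fixed by its entry. In mural-like cells, 4 of 47 were called higher and 11 lower (all genes, 7.59% and 12.3%). Kcnab1 was at 137 and 130 CPM against 4.54 and 3.28 and Kcna5 (Kv1.5, a channel of vascular smooth muscle) at 99.9 and 117 against 1.84 and 0.56. Kcns3, a silent subunit, was at 25.0 and 39.1 CPM (2 and 3 UMIs), and Kcnk3 at 187 and 78.1 against 54.8 and 66.2. The mural-like class has 53 and 59 cells, Kcnab1 rests on 11 and 10 UMIs there and Kcna5 on 8 and 9, and with class totals 2 members in place of 4 were called higher. Kcna5 and Kcns3 passed the low-count filter through the mural-like cells alone, so their calls were fixed by their entry. With DESeq2, fewer members were called lower in each class compared with habenula neurons. There were 29 in place of 39 in oligodendrocyte-like, 3 in place of 13 in oligodendrocyte precursor-like and 10 in place of 19 in committed precursor-like cells. There were 11 in place of 23 in astrocyte-like, 3 in place of 12 in microglia-like and 6 in place of 11 in mural-like cells. Genes called either way fell over all genes as well. In the same order they went from 8361 to 4901, 3772 to 1629, 4289 to 2197, 5815 to 3065, 2322 to 1105 and 2407 to 1126. Kcnj8, the pore of the vascular ATP-sensitive channel, had 13 and 3 UMIs in a cluster that held markers of both endothelial and mural cells and 0 in the mural-like class.

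**Figure D4:**
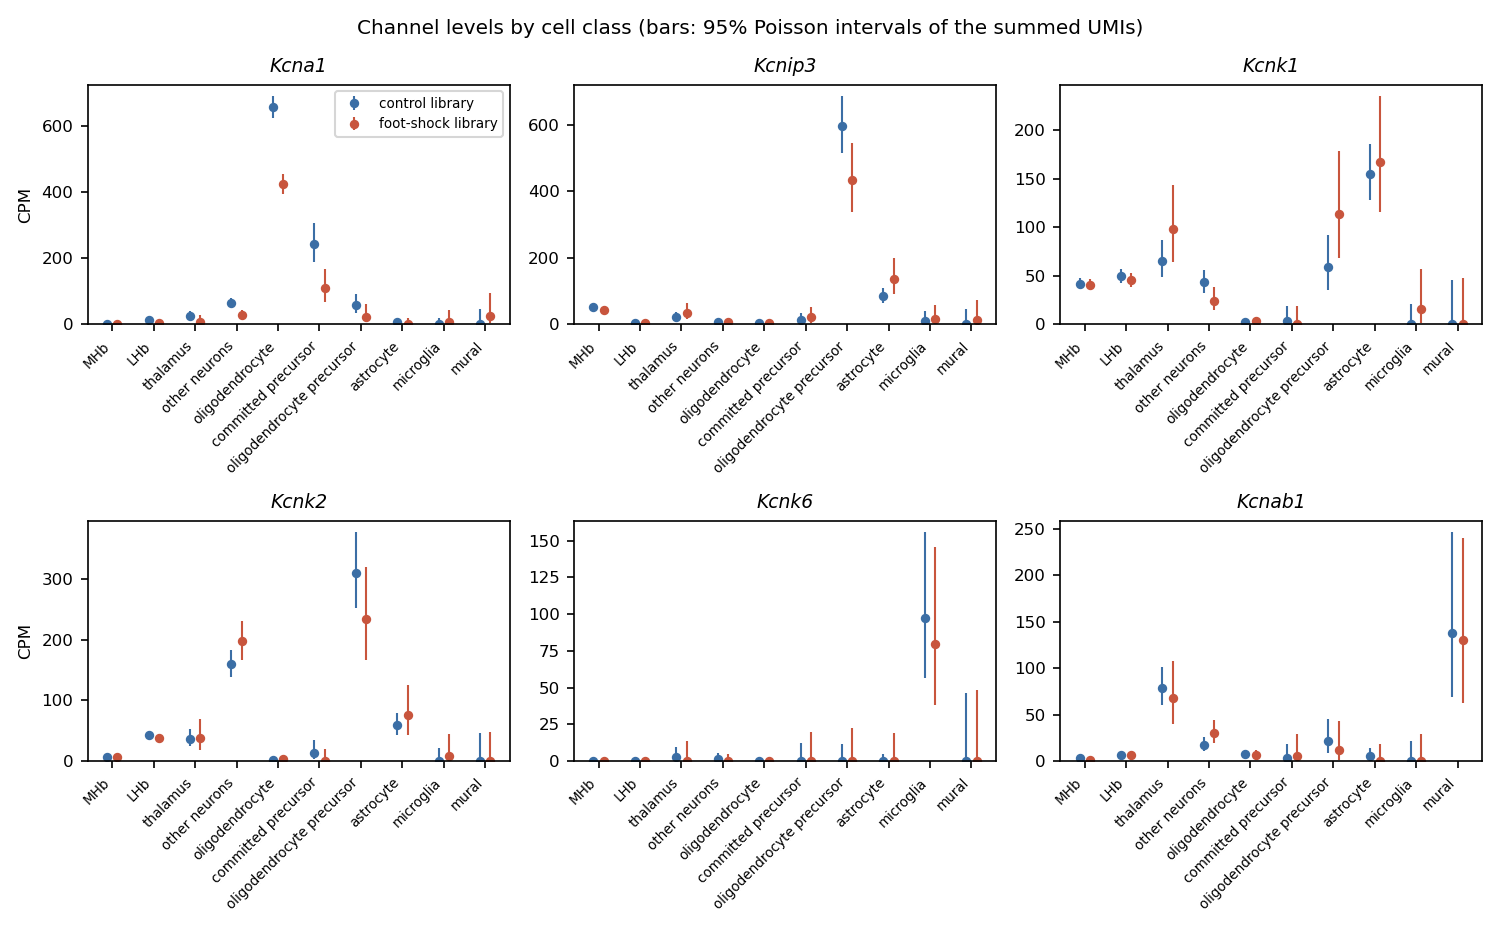
CPM (vertical axis) of 6 genes in each cell class with at least 50 cells in each library, 1 point per library with a 95% Poisson interval. Kcna1 is at 658 and 424 in oligodendrocyte-like cells, Kcnip3 at 596 and 433 in oligodendrocyte precursor-like cells and Kcnk6 at 97.1 and 79.3 in microglia-like cells.

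Foot shock was compared with control as a ratio of CPM with an exact 95% interval that covers counting error only, since each group is 1 library. No test of the treatment was possible. A member was counted where the ratio was at least 1.5 in either direction and the interval left out 1. In MHb-like neurons, 0 of 38 measured members were past this fold, against 3.64% of all genes. In LHb-like neurons, 1 of 46 was higher and 5 were lower, against 1.77% and 2.72% of all genes.

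Kcnq3 had the most UMIs of these, 187 in control and 87 in foot shock, at 44.3 and 27.0 CPM, a ratio of 0.61 (interval 0.47 to 0.79). For Kcna4, levels of 22.5 and 14.9 CPM gave 0.66 (0.46 to 0.95). Kcna1 (55 and 14 UMIs), Kcna5 (17 and 3) and Kcnf1 (24 and 6) were at ratios of 0.33, 0.23 and 0.33. Both levels of Kcna1 lay below its free RNA level, which itself was lower in foot shock (16.9 and 10.4 CPM). Kcng4 was higher, with 21 and 39 UMIs and a ratio of 2.44 (1.40 to 4.36), but both of its levels also lay below free RNA. With clusters cut at a resolution of 2.0, 1 member in place of 6 was past the fold. The share of LHb-like neurons in the Gad2/Rph3a cluster was 25.4% in control and 16.5% in foot shock, and Kcnq3 was at 73.5 and 47.3 CPM within it; the part of the cluster shares in these ratios was not tested.

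In oligodendrocyte-like cells, 1 of 14 members was higher and 2 were lower (all genes, 2.58% and 6.70%). Kcna1 had 1558 UMIs in control and 717 in foot shock, at 658 and 424 CPM, a ratio of 0.64 (0.59 to 0.71). It was at 632 and 340 CPM in the Anln/Hapln2 cluster, 687 and 468 in Ptgds/Opalin and 598 and 360 in Ttyh2/Bmp2k, lower in foot shock in each of the 3 oligodendrocyte-like clusters. These clusters are parts of the same 2 libraries and so are not replicates, and the cause of the lower level was not tested. Summed oligodendrocyte markers were at 51679 and 52648 CPM in the class. With TMM scaling the ratio was 0.68, inside the fold. Kcna1 was lower in foot shock in committed precursor-like cells as well, with 72 and 21 UMIs and a ratio of 0.46 (0.27 to 0.75), where 1 of 5 members was past the fold (all genes, 4.52% higher and 5.44% lower). Its free RNA level was 16.9 and 10.4 CPM. Kcnq1ot1 was the other lower member in oligodendrocyte-like cells, at 109 and 71.6 CPM.

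Kcnip1 was the higher member in oligodendrocyte-like cells (13 and 27 UMIs), astrocyte-like cells (14 and 10), oligodendrocyte precursor-like cells (22 and 23) and microglia-like cells (3 and 18). It was the single member past the fold in the last 3 of these classes, of 12, 16 and 3 measured (all genes, 3.12%, 5.10% and 10.9% higher and 4.23%, 5.08% and 7.55% lower). Free RNA itself held 54.6 and 96.4 CPM of Kcnip1, and the levels of Kcnip1 were below that in the oligodendrocyte-like and astrocyte-like classes. In microglia-like cells the summed MHb markers allowed a free RNA share of at most 7.83% in control and 43.0% in foot shock. In oligodendrocyte precursor-like cells this share was at most 13.2% and 29.9%. The part of free RNA in the Kcnip1 ratios was not tested. In thalamus-like neurons Kcnf1 was past the fold, at 27.1 and 64.1 CPM (1 of 32 members, all genes, 1.91% higher and 2.81% lower), and in other neurons 4 of 32 were lower and 0 higher (all genes, 4.68% and 1.95%): Kcna1, Kcnab2, Kcnk1 and Kcng2. In mural-like cells 0 of 3 were past the fold (all genes, 10.1%).

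**Figure D5:**
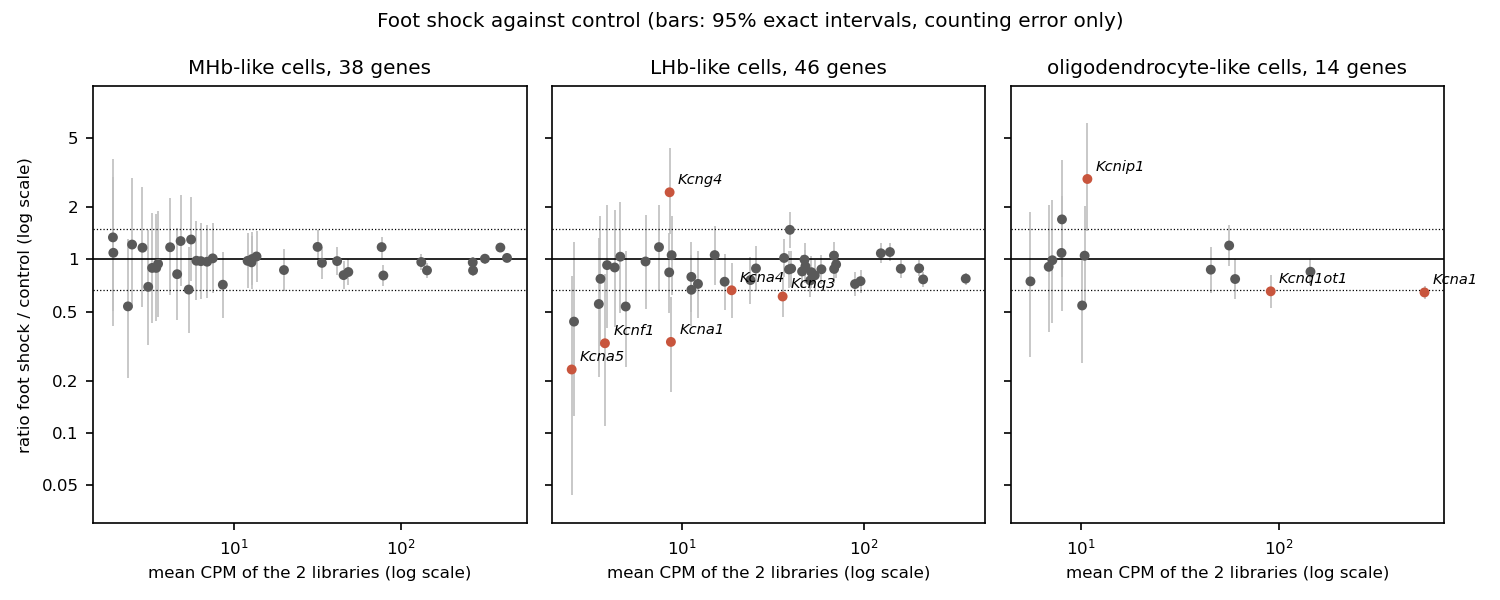
Ratio of CPM in foot shock to control (vertical log axis) against mean CPM (horizontal log axis) for each measured gene in MHb-like, LHb-like and oligodendrocyte-like cells, with exact 95% intervals of counting error and dotted lines at 1.5-fold. Red points are past the fold: 0 of 38 in MHb-like, 6 of 46 in LHb-like and 3 of 14 in oligodendrocyte-like cells.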

How the data were processed

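Droplet RNA libraries (3′ version 2 chemistry) were processed by the authors with Cell Ranger 2 against mm10, per the submitters' processing notes. The deposited matrices hold whole-number UMI counts for every gene in every barcode, without normalization. The gene annotation release was not stated there, and gene positions printed here come from GENCODE vM21 (mm10). The members and lists were chosen with earlier results of these data known. A few genes are not reported here; they stay in the fits and counts but not in group sums, figure labels or cluster names.

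Cells were barcodes with at least 1000 UMIs, 500 to 6000 genes and at most 20% mitochondrial UMIs. Scrublet (scanpy 1.11.5, expected rate 0.08) marked 249 and 69 doublets, which were removed. Counts were clustered with 2000 variable genes other than Kcn genes, 30 components, 15 neighbours and Leiden resolution 1.0, and neurons were clustered again. A cluster was named when it held 3 or more markers of a type (neurons 2), at 33.3% or more of the highest cluster (25% among neurons), and a habenula name needed Pou4f1 at 1 per 10000 UMIs. The neuron thresholds were set after the data were seen. Mixed clusters (12 and 80 cells) and unnamed ones (1 and 11) were left out.

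UMIs were summed per class and library. Classes were compared with edgeR 4.0.16 (filterByExpr, TMM, quasi-likelihood test, Benjamini-Hochberg over all genes tested) with the library as a block. The 2 libraries, which differ in treatment, stand in as the replicates of a class, so p-values rest only on the spread between these 2 pools. That spread was shared over genes. Total degrees of freedom were 71.3 for MHb-like against LHb-like neurons and 12074 to 12531 in the glial and mural fits. In those glial and mural fits a gene's own spread between the libraries had almost no weight. Levels have exact Poisson intervals and ratios exact binomial intervals at 95%; both cover counting error only. Log2 values per library used a prior count of 0.5, and a ratio needed 20 UMIs over both libraries. Named genes were those called between MHb-like and LHb-like neurons (up to 30), the highest member of each group, up to 5 per glial class, up to 10 past the fold per class, up to 3 per subcluster and up to 8 partners. On data simulated for MHb-like against LHb-like neurons (11937 genes), the test recovered 40 of 67 genes changed 1.5-fold, 60 of 67 changed 2-fold and 62 of 62 changed 4-fold, and it called 7 of 11741 unchanged genes. These data were drawn from edgeR's own model with the fitted spread and no library effect. They cannot show the error of treating 2 pools that differ in treatment as replicates. Alternatives were other cell limits, resolutions, scalings, filters, DESeq2 1.42.0, no library block and subtraction of free RNA.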

Additional observations from a re-analysis of the deposited data

Results flagged for a closer look

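Kcnf1, a silent Kv subunit, was past the fold in opposite directions in 2 neuron classes. Its ratio of foot shock to control was 0.33 in LHb-like neurons (24 and 6 UMIs) and 2.36 in thalamus-like neurons (21 and 17 UMIs). The difference between the classes was not tested.

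Classes present mainly in the foot-shock library, which entered no comparison, also held channel RNA above its free RNA level. In 503 epithelial-like cells of that library Kcnq1ot1 was at 144 CPM (free RNA 43.0) and Kcnk1 at 43.8 CPM (free RNA 24.9). In 38 ependymal-like cells Kcnk2 was at 207 CPM (38 UMIs, free RNA 10.6) and Kcnq1ot1 at 365 CPM.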

How the results depend on the processing

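The count of members called between MHb-like and LHb-like neurons (38) was 28 with DESeq2, 34 without the library block and 33 to 42 under the other alternatives. Over all genes, 5977 were called in the main fit. This was 2605 with DESeq2, 4613 without the library block and 4658 to 6295 under the other alternatives. The count at least 2-fold apart in both libraries (27) was 26 to 29, and 30 to 31 when a single library was read. Of 489 alternative values for the 38 called members, 0 changed direction and 24 lost the call. Kcnd3 and Kcnu1 lost it under 5 alternatives each, DESeq2 and class totals among them. The count of members called higher than habenula neurons moved in oligodendrocyte precursor-like cells from 8 to 5 with DESeq2, to 6 with free RNA subtracted and to 5 without the low-count filter. It moved in astrocyte-like cells from 4 to 7 without that filter, in microglia-like cells from 1 to 2 without the library block and to 2 with cells of at least 500 UMIs, and in mural-like cells from 4 to 2 with class totals and to 7 with cells of at least 500 UMIs. Without that filter, all genes called either way went from 3772 to 3646 in oligodendrocyte precursor-like and from 5815 to 5748 in astrocyte-like cells. In microglia-like cells they went from 2322 to 2852 without the block and to 4144 with cells of at least 500 UMIs. In mural-like cells they went from 2407 to 1249 with class totals and to 2479 with cells of at least 500 UMIs. The count called lower moved with DESeq2 from 39 to 29 in oligodendrocyte-like, 19 to 10 in committed precursor-like, 13 to 3 in oligodendrocyte precursor-like, 23 to 11 in astrocyte-like, 12 to 3 in microglia-like and 11 to 6 in mural-like cells, where calls over all genes fell as well, as given above. It also moved to 20 in microglia-like cells with cells of at least 500 UMIs, to 6 in mural-like cells with class totals and to 9 in oligodendrocyte precursor-like cells with free RNA subtracted. For foot shock against control, LHb-like neurons had 1 member past the fold in place of 6 at resolution 2.0, and oligodendrocyte-like cells 1 in place of 3 with TMM scaling. Astrocyte-like cells had 2 in place of 1 with cells of at least 500 UMIs, 2 at resolution 0.5 and 2 at resolution 2.0. They had 0 with cells of at least 2000 UMIs and 0 with at least 50 UMIs per gene. Of 69 alternative values for 10 single ratios of foot shock to control, 14 were no longer past the fold and 0 changed direction. Of 180 alternative values for 60 levels in the habenula classes, 19 moved by more than counting error, 16 of them when levels were averaged over cells, by at most 1.45-fold. The cause of these moves was not tested. No paired analysis was possible because each group has 1 library. Depth limits the small classes: in the mural-like class only 3 members had 20 UMIs over both libraries.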

Other observations

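Thalamus-like neurons, which lie beside the habenula and were few (131 and 58 cells), had several channel genes at levels unlike either habenula class, a difference that was not tested. Kcnd2 was at 271 and 287 CPM there, Kcnc2 at 234 and 215, Kcnq3 at 221 and 219 and Kcna6 at 150 and 136. Within astrocyte-like cells, Kcnq1ot1 was at 364 and 337 CPM in the Etnppl/Slc7a10 cluster and at 99.9 and 101 in the Gfap/Aqp4 cluster, which rests on 11 and 4 UMIs.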
